A study of Rattus norvegicus with 11 samples.

Results

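The 30 genes described here encode the enzymes of cholesterol synthesis from acetyl-CoA to the last sterol steps, the central enzymes of fatty acid synthesis, and a small set of proteins that regulate or carry sterols. They were taken by symbol from a list of names, chosen with earlier results of these data known. All 30 were present among the 42172 genes of the count files. All 30 also passed the filter on low counts, which left 17294 genes tested. RNA was sequenced from primary hippocampal neurons of CD (Sprague Dawley) rats after 7 days in vitro (DIV7), in 11 libraries of polyadenylated RNA. In 4 libraries the neurons carried an exogenous wild-type H1.4, a linker histone (group WT H1.4, libraries WT 1 to WT 4), in 4 an exogenous H1.4 with a C-terminus frameshift tail (H1.4 CFT, libraries CFT 1 to CFT 4), and in 3 GFP as the control (libraries GFP 2 to GFP 4). All 3 groups thus expressed an exogenous protein, and no untreated group was analysed here. The way the constructs were delivered, their promoters, the cells in which the promoters are active, the species of the H1.4 sequence and the age and sex of the animals are not given in the sources used here. The labels call the libraries biological replicates without saying whether they came from separate animals or cultures, so the p-values below measure the spread between these libraries.

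Linker histone H1.4 binds nucleosomes and the DNA between them, and its lysine-rich C-terminal tail contacts that DNA. In cholesterol synthesis, acetyl-CoA is built into HMG-CoA and mevalonate, mevalonate into isoprenoid diphosphates, these into squalene, and squalene is closed into lanosterol and trimmed to cholesterol. The SREBP transcription factors, made from Srebf1 and Srebf2, are held in the endoplasmic reticulum by Insig proteins when sterols are plentiful and switch on most genes of this pathway and of fatty acid synthesis when they are scarce. The brain makes its own cholesterol because lipoproteins of the blood do not cross the blood-brain barrier, and both neurons and astrocytes hold the pathway.

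Gene counts came to between 12070941 and 18846492 per library. Levels are given as CPM, the count of a gene scaled by the gene counts of its library with TMM factors, and they compare libraries for 1 gene, not genes with each other, since no gene lengths were used. Libraries split by number in every group, most widely in H1.4 CFT. The chi-square of count differences per gene was 1.78 between CFT 1 and CFT 2 and 1.91 between CFT 3 and CFT 4, but 8.12 to 9.35 across these pairs. It was 2.26 between WT 1 and WT 2 and 2.25 between WT 3 and WT 4, but 3.79 to 4.68 across, and 2.11 between GFP 3 and GFP 4, but 4.49 and 5.74 between these and GFP 2. The main fit takes the libraries of a group as independent and has no term for this split. If libraries of a pair share a source, which the labels do not say, its p-values rest on fewer units than libraries. The same holds for its counts of genes that passed. Results are therefore also given within libraries 1 and 2 and within libraries 3 and 4. Markers of neurons, summed over 10 genes, ranged from 5576 to 5702 CPM in GFP and from 5624 to 5759.9 in WT H1.4, and stood at 4573 and 4648 in CFT 1 and CFT 2 and at 3950 and 3945 in CFT 3 and CFT 4. None of these 10 averaged under 1 CPM. Markers of astrocytes, summed over 10 genes, ranged from 2411 to 2567 in GFP, from 1887 to 2038 in WT H1.4 and from 2407 to 2422 in H1.4 CFT, so the cultures also held RNA of astrocytes. In bulk RNA, fewer cells of a type and less RNA per cell cannot be told apart.

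Most of the synthesis genes had lower mean transcript levels in the H1.4 CFT cultures than in either other group. Against WT H1.4, 20 of the 30 fell, 1 rose and 9 did not pass the adjusted threshold of 0.05 in edgeR's quasi-likelihood test, while 35.9% of all genes tested passed, 19.2% lower and 16.7% higher. The median log2 fold change of the 30 was -0.50, beside 0.018 over all genes tested. Against GFP, 16 fell, 1 rose and 13 did not pass (all genes: 29.5% passed, 16.2% fell and 13.3% rose), with a median of -0.49 beside 0.011. Both comparisons use the same 4 H1.4 CFT libraries, so they are not separate evidence. Because the 30 genes were chosen with earlier results of these data known, the shares of all genes are a background and not a test of the list. For WT H1.4 against GFP, 1 of the 30 fell, 0 rose and 29 did not pass (all genes: 0.943% passed, 0.509% fell and 0.434% rose), and the median was 0.018.

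The summed CPM of the 30 genes was 9677, 9171 and 8702 in GFP 2 to 4, 9213, 9562, 9034 and 9729 in WT 1 to 4, and 7895, 7753, 5770.5 and 5647 in CFT 1 to 4. GFP and WT H1.4 overlapped, and all 4 H1.4 CFT libraries lay below both. The mean was lowest in H1.4 CFT for 26 of the 30 genes, in WT H1.4 for 3 and in GFP for 1. The lowest single library was CFT 4 for 21 genes and CFT 3 for 5. Every H1.4 CFT library lay below every WT H1.4 library for 22 genes and above for 1 (all genes: 34.6% in either direction, 18.5% below and 16.1% above). Against GFP these counts were 20 and 1 (all genes: 35.5% in either direction, 18.5% below and 17.0% above).

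The 2 comparisons shared most of the genes that fell. In both, 14 genes fell: Hmgcs1, Idi1, Fdps, Acat2, Sqle, Cyp51, Msmo1, Nsdhl, Hsd17b7, Ebp, Acss2, Acaca, Elovl6 and Fads2. Another 6 (Mvd, Fdft1, Insig1, Stard4, Acly and Fasn) fell against WT H1.4 and missed the threshold against GFP, and 2 (Mvk and Tm7sf2) fell against GFP and missed it against WT H1.4. In the main fit WT H1.4 and GFP themselves did not differ past the threshold for any of these 8 genes. Their response is thus not shown to differ between the comparisons. Fasn stood apart, with every WT H1.4 library above every GFP library and a difference that passed under some alternative fits, given below. Srebf1 rose against WT H1.4, Lpin1 rose against GFP, and 6 genes (Pmvk, Lss, Sc5d, Dhcr7, Srebf2 and Fads1) passed in neither. Leaving out 1 library at a time gave 17 to 23 genes lower against WT H1.4, and 10 to 20 against GFP. Against GFP the count was lowest without GFP 2 (10) and without GFP 3 (10), and it was 8 when the WT H1.4 libraries were left out of the fit.

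**Figure D1:**
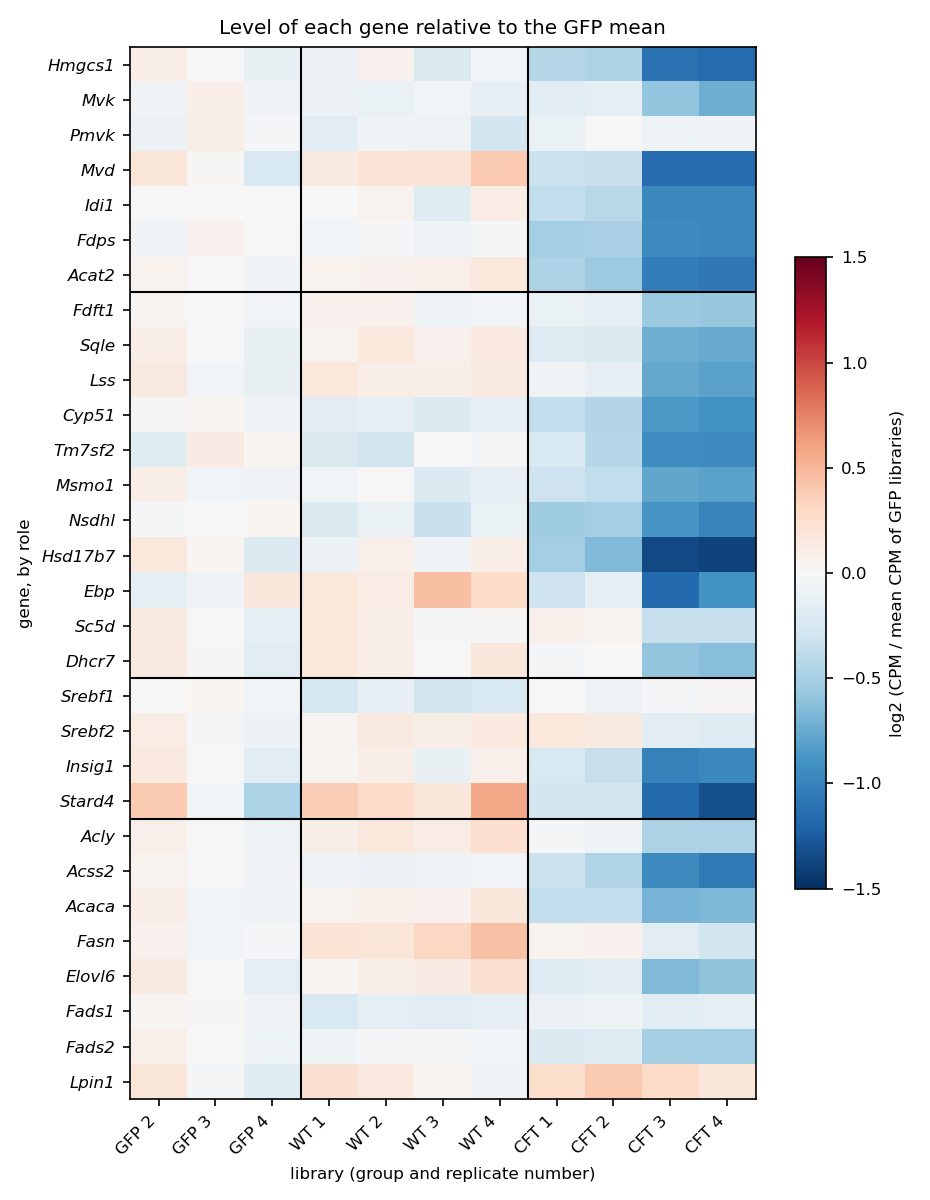
Level of each of the 30 genes (rows, by role) in each of the 11 libraries (columns), as log2 of CPM over the mean of the GFP libraries. The lowest library is CFT 3 or CFT 4 for 26 of the 30 genes, and for most rows CFT 1 and CFT 2 lie between them and the other groups.

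Promoter sequence was examined for 23 of the 30 genes, those with an entry in the RefSeq promoter table of the GRCr8 build (250 bases before to 50 after the start of the gene). Pmvk, Fdft1, Sqle, Stard4, Acaca, Fasn and Elovl6 had none. The motifs searched, on both strands, were a sterol response element TCACNCCAC, to which SREBPs bind, the CCAAT box CCAAT, bound by NF-Y, the GC box GGGCGG, bound by Sp factors, and the E-box CACGTG. TCACNCCAC was found in 0 of the 23 windows and in 1.12% of all 33469 windows. CCAAT was found in 19 of the 23 (82.6%) and in 37.5% of all windows, and GGGCGG in 20 of the 23 (87%) and in 33.1% of all. CACGTG was found in 2 (8.7%), Sc5d and Insig1, and in 6.42% of all. The 23 windows had a median GC content of 65%, against 51.7% for all windows. A match is a description of letters, not a measured binding site, and no match says only that the letters are not in this window. Variants of TCACNCCAC were not searched, so the 0 matches do not show that these windows lack a sterol response element. Relative to WT H1.4, the 3 genes with the smallest p in H1.4 CFT among those with an entry were Fdps (chr2:176804767-176805066, minus strand), Ebp (chrX:16971212-16971511, plus strand) and Acat2 (chr1:50100590-50100889, plus strand). Their windows are shown 5′ to 3′ along the gene, from RefSeq on GRCr8, with CCAAT and GGGCGG on either strand in capitals.
Fdps: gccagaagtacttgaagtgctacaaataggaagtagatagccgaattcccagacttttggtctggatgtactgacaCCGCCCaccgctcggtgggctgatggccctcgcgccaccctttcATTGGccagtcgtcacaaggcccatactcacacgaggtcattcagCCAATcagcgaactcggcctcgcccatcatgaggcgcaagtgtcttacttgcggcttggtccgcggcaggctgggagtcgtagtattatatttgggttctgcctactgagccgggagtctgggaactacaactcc
Ebp: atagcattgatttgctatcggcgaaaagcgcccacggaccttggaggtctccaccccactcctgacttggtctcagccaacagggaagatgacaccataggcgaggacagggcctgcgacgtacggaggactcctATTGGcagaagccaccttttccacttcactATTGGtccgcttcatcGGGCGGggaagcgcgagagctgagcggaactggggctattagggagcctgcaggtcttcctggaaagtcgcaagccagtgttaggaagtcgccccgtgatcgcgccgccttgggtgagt
Acat2: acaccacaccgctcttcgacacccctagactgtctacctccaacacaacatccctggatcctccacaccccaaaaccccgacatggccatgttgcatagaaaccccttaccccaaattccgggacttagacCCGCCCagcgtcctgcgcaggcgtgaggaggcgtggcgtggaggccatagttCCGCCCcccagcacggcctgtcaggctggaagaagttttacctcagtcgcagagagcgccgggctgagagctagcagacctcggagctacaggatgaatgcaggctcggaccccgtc
Fdps and Ebp each held 2 CCAAT boxes and 1 GC box, and Acat2 held 0 CCAAT boxes and 2 GC boxes.

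Of the 7 genes of the mevalonate and isoprenoid steps, 5 fell against WT H1.4 and 5 against GFP, with 4 in common. Acat2, the cytosolic thiolase that joins acetyl-CoA units at the start of the pathway, was at 415, 396 and 385 CPM in GFP 2 to 4, 414, 417, 419 and 443 in WT 1 to 4 and 289, 274, 194 and 190.1 in CFT 1 to 4. The H1.4 CFT libraries were all below the others, CFT 3 and CFT 4 under CFT 1 and CFT 2. Acat2 was 1.79-fold lower than in WT H1.4 (adjusted p = 0.00151, log2 fold change -0.84, SE 0.136) and 1.68-fold lower than in GFP (adjusted p = 0.00484, log2 fold change -0.75, SE 0.146). Hmgcs1, the cytosolic synthase of HMG-CoA, had 1384, 1356, 858 and 839.7 CPM in CFT 1 to 4, against 1759, 1946, 1612 and 1819 in WT 1 to 4 and 2006, 1864 and 1733 in GFP 2 to 4. Again no H1.4 CFT library reached the others, and CFT 3 and CFT 4 kept 47.6% of the mean of WT H1.4, against 76.8% for CFT 1 and CFT 2. Hmgcs1 fell 1.61-fold against WT H1.4 (adjusted p = 0.0181, log2 fold change -0.69, SE 0.180) and 1.68-fold against GFP (adjusted p = 0.0194, log2 fold change -0.75, SE 0.193). Its call against GFP was lost without GFP 2 or GFP 3 (adjusted p from 0.0527 to 0.0625).

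Mevalonate is phosphorylated by Mvk and Pmvk and decarboxylated by Mvd. Mvk was at 58.4, 65.1 and 58.7 CPM in GFP 2 to 4, 57.0, 56.9, 58.8 and 55.7 in WT 1 to 4 and 54.4, 55.3, 40.2 and 36.6 in CFT 1 to 4. CFT 1 and CFT 2 lay just under the WT H1.4 libraries and CFT 3 and CFT 4 well under them. Mvk fell against GFP (adjusted p = 0.0477, log2 fold change -0.38, SE 0.129), and its difference from WT H1.4 did not pass (adjusted p = 0.0784, log2 fold change -0.29, SE 0.119) but did with the number pair as a term in the fit (adjusted p = 0.0429). The call against GFP was lost without any 1 of the 8 libraries other than CFT 1, CFT 2 and CFT 4 (adjusted p 0.0624 to 0.142). Pmvk ranged from 47.8 to 62.0 CPM over the 11 libraries, with overlapping groups and no call (log2 fold change 0.083 against WT H1.4, adjusted p = 0.276, and -0.056 against GFP, adjusted p = 0.537). Mvd measured 139, 147, 145 and 166 CPM in WT 1 to 4, 144, 129 and 109 in GFP 2 to 4 and 102, 101, 57.6 and 57.5 in CFT 1 to 4. All 4 H1.4 CFT libraries were below every other library, and among the GFP libraries GFP 4 came closest to them. Mvd was 1.88-fold lower than in WT H1.4 (adjusted p = 0.0108, log2 fold change -0.91, SE 0.214). Against GFP the fold was 1.60, and the test did not pass (adjusted p = 0.0582, log2 fold change -0.68, SE 0.231), but did with the number pair term (adjusted p = 0.0236).

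The isoprenoid diphosphates are made by Idi1, an isomerase, and Fdps, which joins them to farnesyl diphosphate. Idi1 had 161, 156, 107 and 107 CPM in CFT 1 to 4, against 207, 217, 184 and 225 in WT 1 to 4 and 208, 208 and 209 in GFP 2 to 4. The GFP libraries were within 1 CPM of each other and inside the range of WT H1.4, and the H1.4 CFT libraries were below both. Idi1 fell 1.57-fold against WT H1.4 (adjusted p = 0.00894, log2 fold change -0.65, SE 0.148) and 1.57-fold against GFP (adjusted p = 0.0149, log2 fold change -0.65, SE 0.159). Fdps was at 348, 376 and 359 CPM in GFP 2 to 4, 351, 356, 346 and 355 in WT 1 to 4 and 253, 259, 187 and 185 in CFT 1 to 4. The 7 libraries of WT H1.4 and GFP were close together, CFT 1 and CFT 2 were lower, and CFT 3 and CFT 4 were at 52.8% of the mean of WT H1.4. The call for Fdps, 1.59-fold lower than in WT H1.4 (adjusted p = 0.00111, log2 fold change -0.67, SE 0.109) and 1.64-fold lower than in GFP (adjusted p = 0.00157, log2 fold change -0.71, SE 0.117), held without any single library.

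**Figure D2:**
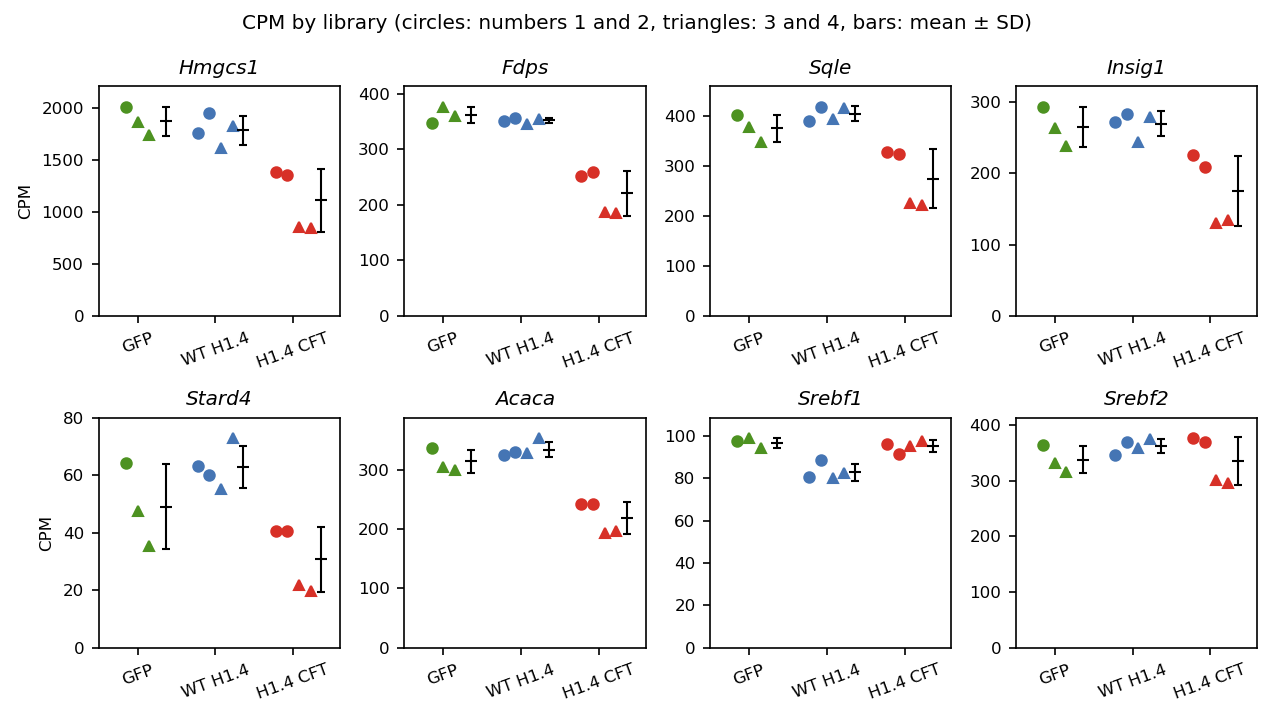
CPM of selected genes in each library, by group (circles are libraries numbered 1 and 2, triangles those numbered 3 and 4, bars the mean ± SD, n = 3 for GFP and 4 for either H1.4 group). For Fdps the H1.4 CFT triangles sit at 187 and 185 CPM, below the circles at 253 and 259, and all other libraries are at 346 CPM or more.

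Of the 11 genes from squalene to cholesterol, 7 fell against WT H1.4 and 7 against GFP, 6 of them in both, and all 11 had negative log2 fold changes in both. Fdft1, squalene synthase, commits isoprenoids to sterols and was at 303, 292 and 286 CPM in GFP 2 to 4, 308, 308, 281 and 286 in WT 1 to 4 and 275, 266, 199 and 198 in CFT 1 to 4. CFT 1 and CFT 2 were just under the lowest libraries of WT H1.4 and GFP, at 91.3% of the mean of WT H1.4, and CFT 3 and CFT 4 were at 67.1%. Fdft1 fell 1.26-fold against WT H1.4 (adjusted p = 0.0354, log2 fold change -0.34, SE 0.108). Against GFP it did not pass (adjusted p = 0.0621, log2 fold change -0.33, SE 0.116), while with the replicate block it did (adjusted p = 0.000449). The call against WT H1.4 was lost without WT 1, WT 2, WT 4, CFT 3 or CFT 4 (adjusted p 0.0578 to 0.079). Sqle, squalene epoxidase, had 328, 323, 227 and 222 CPM in CFT 1 to 4, against 389, 418, 394 and 416 in WT 1 to 4 and 401, 378 and 348 in GFP 2 to 4. All H1.4 CFT libraries lay under all others. Sqle fell 1.47-fold against WT H1.4 (adjusted p = 0.0122, log2 fold change -0.56, SE 0.136) and 1.37-fold against GFP (adjusted p = 0.0478, log2 fold change -0.45, SE 0.146), and the second call was lost without any 1 of the 9 libraries other than CFT 1 and CFT 2 (adjusted p 0.0633 to 0.134).

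Lss closes squalene epoxide into lanosterol, from which Cyp51, Msmo1, Nsdhl and Hsd17b7 remove methyl groups and Tm7sf2 reduces a double bond. Cyp51 was at 589.7, 597 and 562 CPM in GFP 2 to 4, 524, 534, 506 and 537 in WT 1 to 4 and 451, 432, 320.4 and 310.5 in CFT 1 to 4. Its libraries were ordered by group, GFP above WT H1.4 above H1.4 CFT, with no overlap. Cyp51 was 1.39-fold lower than in WT H1.4 (adjusted p = 0.0121, log2 fold change -0.47, SE 0.117) and 1.54-fold lower than in GFP (adjusted p = 0.00531, log2 fold change -0.62, SE 0.126), whereas WT H1.4 against GFP did not pass (log2 fold change -0.15, adjusted p = 0.728). Msmo1 measured 237, 242, 211 and 224 CPM in WT 1 to 4, 259, 235 and 234 in GFP 2 to 4 and 196, 188, 142 and 139 in CFT 1 to 4. WT H1.4 and GFP overlapped and no H1.4 CFT library reached either. Msmo1 fell 1.37-fold against WT H1.4 (adjusted p = 0.013, log2 fold change -0.46, SE 0.116) and 1.46-fold against GFP (adjusted p = 0.00965, log2 fold change -0.55, SE 0.125).

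Nsdhl, a sterol dehydrogenase, had 74.3, 75.5, 58.0 and 54.2 CPM in CFT 1 to 4, against 93.1, 99.9, 85.2 and 101 in WT 1 to 4 and 106, 107 and 109 in GFP 2 to 4. Here the 3 GFP libraries were all above the WT H1.4 libraries, which were all above those of H1.4 CFT. Nsdhl fell 1.45-fold against WT H1.4 (adjusted p = 0.00222, log2 fold change -0.53, SE 0.103) and 1.64-fold against GFP (adjusted p = 0.00068, log2 fold change -0.72, SE 0.110), and WT H1.4 against GFP did not pass (log2 fold change -0.18, adjusted p = 0.579). Hsd17b7, the sterol ketoreductase, was at 90.1, 82.3 and 70.0 CPM in GFP 2 to 4, 76.0, 84.9, 77.9 and 86.6 in WT 1 to 4 and 56.9, 51.0, 31.6 and 30.8 in CFT 1 to 4. Levels in CFT 3 and CFT 4 were 38.3% of the mean of WT H1.4, and those in CFT 1 and CFT 2 66.3%. Hsd17b7 fell 1.91-fold against WT H1.4 (adjusted p = 0.00762, log2 fold change -0.94, SE 0.204) and 1.90-fold against GFP (adjusted p = 0.0138, log2 fold change -0.92, SE 0.220), the latter lost without GFP 2 (adjusted p = 0.0506). Tm7sf2 measured 62.0, 59.5, 72.4 and 71.1 CPM in WT 1 to 4, 63.6, 78.7 and 73.9 in GFP 2 to 4 and 61.5, 53.5, 37.8 and 37.4 in CFT 1 to 4. CFT 1 lay inside the range of WT H1.4, CFT 2 below it, and CFT 3 and CFT 4 at 56.8% of its mean. Tm7sf2 fell against GFP (adjusted p = 0.0366, log2 fold change -0.60, SE 0.182), not with the replicate block (adjusted p = 0.0779), and its difference from WT H1.4 did not pass (adjusted p = 0.0542, log2 fold change -0.48, SE 0.169). The call against GFP was lost without WT 1, CFT 3, CFT 4, GFP 3 or GFP 4 (adjusted p 0.0504 to 0.111).

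Ebp, Sc5d and Dhcr7 carry out the last rearrangements and reductions of the sterol ring. Ebp, the sterol isomerase, had the lowest counts of the 30 genes (70 to 222 per library) and was at 8.14, 8.65 and 10.04 CPM in GFP 2 to 4, 9.97, 9.69, 12.2 and 10.8 in WT 1 to 4 and 7.21, 8.05, 3.97 and 4.82 in CFT 1 to 4. The H1.4 CFT libraries were below all others, but CFT 2 was close to GFP 2. Ebp fell 1.78-fold against WT H1.4 (adjusted p = 0.00132, log2 fold change -0.83, SE 0.173) and 1.49-fold against GFP (adjusted p = 0.031, log2 fold change -0.58, SE 0.192). The call against GFP was lost with the replicate block (adjusted p = 0.0504) and without CFT 3, CFT 4, GFP 3 or GFP 4 (adjusted p 0.0657 to 0.143). Within libraries 1 and 2 the log2 fold change of Ebp was -0.37 against WT H1.4 and -0.10 against GFP, and neither passed there.

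Lss, Sc5d and Dhcr7 passed in neither comparison of H1.4 CFT. Lss, lanosterol synthase, ranged from 148 to 287 CPM, with every H1.4 CFT library below every WT H1.4 library (log2 fold change -0.51, adjusted p = 0.051) and CFT 1 inside the range of GFP (-0.40, adjusted p = 0.159). With the replicate block Lss fell against WT H1.4 (adjusted p = 0.0309), and with the number pair term against WT H1.4 and GFP (adjusted p = 0.0115 and 0.0366). Dhcr7, which reduces the direct precursor to cholesterol, ranged from 103 to 181 CPM with overlapping groups (log2 fold change -0.39 against WT H1.4, adjusted p = 0.0938, or 0.048 with the block, and -0.28 against GFP, adjusted p = 0.273). Sc5d, a sterol desaturase, ranged from 121 to 171 CPM with overlapping groups (log2 fold change -0.19 against WT H1.4, adjusted p = 0.201, and -0.13 against GFP, adjusted p = 0.458). With the block Sc5d fell against both (adjusted p = 0.00339 and 0.0155). For all 3 genes the lowest library was CFT 3 or CFT 4.

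The 4 regulators and carriers did not move as 1 group: against WT H1.4, Insig1 and Stard4 fell, Srebf1 rose and Srebf2 did not pass, and against GFP 0 of the 4 passed. Srebf2, which encodes the SREBP most tied to sterol genes, was at 365, 332 and 317 CPM in GFP 2 to 4, 347, 369.8, 359 and 375 in WT 1 to 4 and 377, 370.4, 302 and 296 in CFT 1 to 4. CFT 1 was the highest of all 11 libraries and CFT 4 the lowest. The log2 fold change of Srebf2 was -0.11 against WT H1.4 (SE 0.0776, adjusted p = 0.297) and -0.0082 against GFP (SE 0.0841, adjusted p = 0.956). Within libraries 3 and 4 it was -0.30 against WT H1.4, and within libraries 1 and 2 it was 0.059. Srebf1, which encodes the SREBP isoforms more tied to fatty acid genes, had 96.4, 91.6, 95.1 and 97.8 CPM in CFT 1 to 4, against 80.6, 88.8, 80.1 and 82.4 in WT 1 to 4 and 97.5, 98.9 and 94.3 in GFP 2 to 4. WT H1.4 was the low group here, with all 4 of its libraries under all 7 others, and H1.4 CFT overlapped GFP. Srebf1 rose 1.15-fold against WT H1.4 (adjusted p = 0.0017, log2 fold change 0.20, SE 0.0448), with no difference past the threshold against GFP (adjusted p = 0.75, log2 fold change -0.024, SE 0.0485), and it was the 1 gene of the 30 that fell in WT H1.4 against GFP (adjusted p = 0.0275, log2 fold change -0.22, SE 0.0488). That last call was lost without WT 1, WT 3, WT 4, GFP 3 or GFP 4 (adjusted p 0.0857 to 0.182). Transcript levels do not show how much SREBP protein was cleaved to its active form.

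Insig1, the sterol-dependent anchor of the SREBP complex and itself a target of SREBPs, measured 271, 283, 244 and 279 CPM in WT 1 to 4, 293, 263 and 238 in GFP 2 to 4 and 225, 208, 131 and 135 in CFT 1 to 4. Each H1.4 CFT library was below all others, with CFT 3 and CFT 4 at 49.4% of the mean of WT H1.4. Insig1 fell 1.54-fold against WT H1.4 (adjusted p = 0.0301, log2 fold change -0.62, SE 0.185). The difference from GFP, 1.51-fold, did not pass (adjusted p = 0.0543, log2 fold change -0.60, SE 0.199) but did with the replicate block (adjusted p = 0.0244). The call against WT H1.4 was lost without WT 1, WT 2, WT 4, CFT 3 or CFT 4 (adjusted p 0.0613 to 0.0718). Stard4, a cytosolic sterol carrier, was at 64.4, 47.6 and 35.2 CPM in GFP 2 to 4, 63.2, 60.0, 55.3 and 72.8 in WT 1 to 4 and 40.6, 40.5, 21.9 and 19.6 in CFT 1 to 4. The GFP libraries were spread widely, GFP 4 lying under CFT 1 and CFT 2. Stard4 had the lowest log2 fold change of the 30 genes against WT H1.4, at 2.05-fold lower (adjusted p = 0.0214, log2 fold change -1.04, SE 0.284), a call lost without WT 4 or CFT 3 (adjusted p 0.0559 to 0.0579). Against GFP it did not pass (adjusted p = 0.144, log2 fold change -0.68, SE 0.311), and its log2 fold change was -0.88 without GFP 4 and -0.43 without GFP 2.

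Of the 8 fatty acid and glycerolipid enzymes, 6 fell against WT H1.4, and 4 fell and 1 rose against GFP. Acly makes cytosolic acetyl-CoA from citrate and was at 657, 621 and 591 CPM in GFP 2 to 4, 660.4, 695, 674 and 739.7 in WT 1 to 4 and 617, 595, 452 and 447 in CFT 1 to 4. The order was WT H1.4 above GFP above H1.4 CFT, except that CFT 1 and CFT 2 were above GFP 4. Acly fell 1.31-fold against WT H1.4 (adjusted p = 0.0182, log2 fold change -0.39, SE 0.108) and did not pass against GFP (adjusted p = 0.157, log2 fold change -0.24, SE 0.116). Acss2 makes acetyl-CoA from acetate and had 89.6, 82.0, 57.9 and 53.6 CPM in CFT 1 to 4, against 108, 105, 106 and 109 in WT 1 to 4 and 116, 111 and 108 in GFP 2 to 4. CFT 3 and CFT 4 were at 52.0% of the mean of WT H1.4. Acss2 fell 1.52-fold against WT H1.4 (adjusted p = 0.0146, log2 fold change -0.60, SE 0.152) and 1.58-fold against GFP (adjusted p = 0.0158, log2 fold change -0.66, SE 0.164), the latter lost without GFP 2 (adjusted p = 0.0515).

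Acaca, acetyl-CoA carboxylase, sets the rate of fatty acid synthesis and was at 337, 305 and 300.03 CPM in GFP 2 to 4, 324, 329.7, 329 and 353 in WT 1 to 4 and 243, 243, 194 and 196 in CFT 1 to 4. Its H1.4 CFT libraries were all below the lowest of the others. Acaca had the smallest p of the 30 genes in both comparisons, 1.53-fold lower than in WT H1.4 (adjusted p = 4.43e-05, log2 fold change -0.61, SE 0.0745) and 1.43-fold lower than in GFP (adjusted p = 0.000343, log2 fold change -0.52, SE 0.0801). Fasn, fatty acid synthase, measured 995, 981, 1069 and 1169 CPM in WT 1 to 4, 900.5, 842 and 847 in GFP 2 to 4 and 896, 903, 774 and 714 in CFT 1 to 4. Here WT H1.4 was the high group, all 4 libraries above all 3 of GFP, and CFT 1 and CFT 2 were at the level of GFP 2. Fasn fell 1.28-fold against WT H1.4 (adjusted p = 0.00267, log2 fold change -0.36, SE 0.0759) and did not pass against GFP (adjusted p = 0.563, log2 fold change -0.071, SE 0.0819). WT H1.4 against GFP did not pass for Fasn (log2 fold change 0.29, adjusted p = 0.154), but did without CFT 4 (adjusted p = 0.0374), with DESeq2 (adjusted p = 0.0278), with no filter (adjusted p = 4.36e-06) and with only the groups compared (adjusted p = 0.00734).

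Elovl6 elongates the product of Fasn, Fads1 and Fads2 desaturate polyunsaturated fatty acids, and Lpin1 makes diacylglycerol from phosphatidate. Elovl6 had 131, 133, 94.7 and 98.9 CPM in CFT 1 to 4, against 154, 160.0, 164 and 175 in WT 1 to 4 and 164, 149 and 136 in GFP 2 to 4. No H1.4 CFT library reached the others, though CFT 1 and CFT 2 were near GFP 4. Elovl6 fell 1.43-fold against WT H1.4 (adjusted p = 0.0082, log2 fold change -0.51, SE 0.119). It fell 1.31-fold against GFP (adjusted p = 0.0478, log2 fold change -0.39, SE 0.128), but not with the replicate block (adjusted p = 0.052), with RLE scaling (adjusted p = 0.0502) or without any 1 of the 9 libraries other than CFT 1 and CFT 2 (adjusted p 0.0522 to 0.152). Fads2 was at 653, 618 and 592 CPM in GFP 2 to 4, 594, 615, 608 and 606 in WT 1 to 4 and 539.9, 542, 441 and 435 in CFT 1 to 4. GFP and WT H1.4 overlapped and H1.4 CFT was below both. Fads2 fell 1.24-fold against WT H1.4 (adjusted p = 0.00211, log2 fold change -0.31, SE 0.0660) and 1.27-fold against GFP (adjusted p = 0.00204, log2 fold change -0.34, SE 0.0710).

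Fads1 and Lpin1 differed from the other enzymes. Fads1 ranged from 253 to 302 CPM. H1.4 CFT overlapped WT H1.4 (log2 fold change 0.059, adjusted p = 0.26) and lay below GFP in every library without passing (-0.11, adjusted p = 0.0625), and WT H1.4 also lay below GFP in every library without passing (-0.17, adjusted p = 0.0717). With the number pair term Fads1 fell against GFP in H1.4 CFT (adjusted p = 0.0318) and in WT H1.4 (adjusted p = 0.0187). Lpin1 was at 42.1, 36.3 and 32.6 CPM in GFP 2 to 4, 43.5, 41.0, 38.0 and 35.7 in WT 1 to 4 and 44.4, 48.6, 45.3 and 42.1 in CFT 1 to 4. The H1.4 CFT libraries were all above the GFP libraries, CFT 4 by little, and overlapped WT 1. Lpin1 rose 1.22-fold against GFP (adjusted p = 0.0141, log2 fold change 0.29, SE 0.0845), a call lost without GFP 3 or GFP 4 (adjusted p 0.0556 to 0.123). Against WT H1.4 it did not pass (adjusted p = 0.0597, log2 fold change 0.19, SE 0.0763) and rose with the replicate block (adjusted p = 0.0136), which brings the count of genes higher from 1 to 2.

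**Figure D3:**
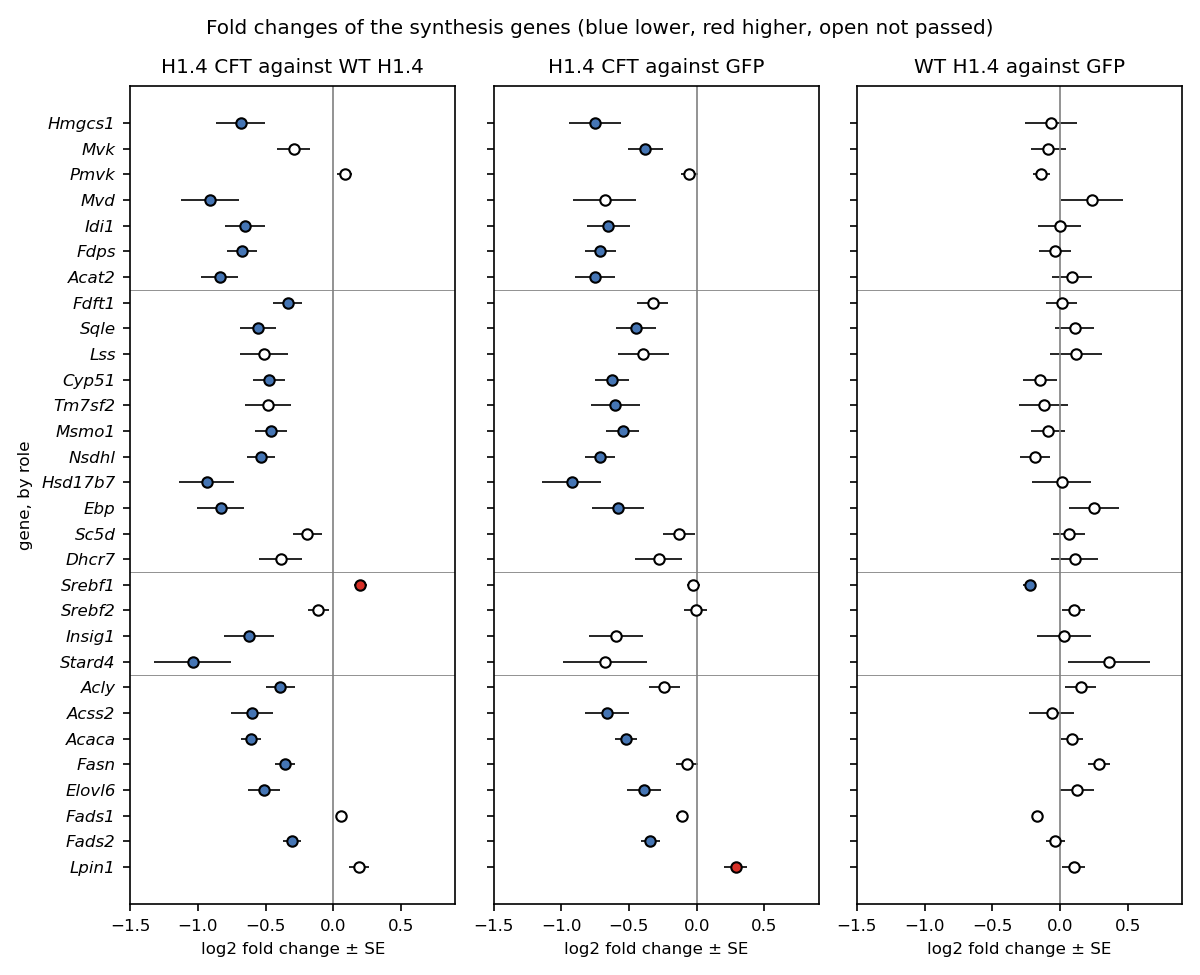
Log2 fold change ± SE of each of the 30 genes in the 3 comparisons (filled blue lower, filled red higher, open not passed). Points of both H1.4 CFT panels lie mostly left of 0, with medians of -0.50 and -0.49, and those of WT H1.4 against GFP lie around 0.

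Within H1.4 CFT the libraries differed more than the group means show. CFT 3 and CFT 4 were both below both CFT 1 and CFT 2 for 27 of the 30 genes (all genes tested: 31.0%), with a median log2 ratio of -0.47. In WT H1.4 this held for 4 of the 30 (all genes: 21.7%), with a median of 0.0054. In GFP, GFP 3 and GFP 4 were both below GFP 2 for 21 (all genes: 37.1%), with a median of -0.11. Relative to the mean of WT H1.4, CFT 1 and CFT 2 kept 67.7% of Mvd and CFT 3 and CFT 4 38.5%. For Stard4 these shares were 64.5% and 33.1%, and for Fasn 85.4% and 70.6%. The labels do not say what the numbers stand for, and number 1 has no GFP library.

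Most of the genes passed as lower within each number pair. In libraries 1 and 2, 21 of the 30 genes passed as lower and 2 as higher against WT H1.4 (Srebf1 and Fads1; all genes tested: 15.3% lower), with a median log2 fold change of -0.26. In libraries 3 and 4, 26 passed as lower and 2 as higher (Srebf1 and Lpin1; all genes: 23.7% lower), with a median of -0.77. Against GFP, 20 were lower and 0 higher in libraries 1 and 2 (all genes: 11.7% lower, median of the 30 -0.29), and 26 lower and 1 higher in libraries 3 and 4 (all genes: 21.6% lower, median -0.70). These fits rest on 2 libraries a group and on the small spread inside a pair, so their counts are not on the footing of the full comparison. In the first pair GFP is the single library GFP 2: the spread comes from WT H1.4 and H1.4 CFT alone, and GFP 2 is assumed to vary like them. Mvd moved from -0.50 within libraries 1 and 2 to -1.44 within libraries 3 and 4 against WT H1.4, Hsd17b7 from -0.57 to -1.40, and Acaca from -0.43 to -0.81. Mvk and Tm7sf2 were near 0 in the first pair (-0.056 and -0.084) and at -0.58 and -0.94 in the second. Srebf1 was higher than in WT H1.4 in both (0.15 and 0.24). The difference between the pairs was not tested. With the number pair as a term over all libraries, 24 of the 30 fell and 2 rose against WT H1.4, and 22 fell and 1 rose against GFP. That term takes the shift between the pairs as the same in every group, whereas the median ratios given above differed between the groups.

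**Figure D4:**
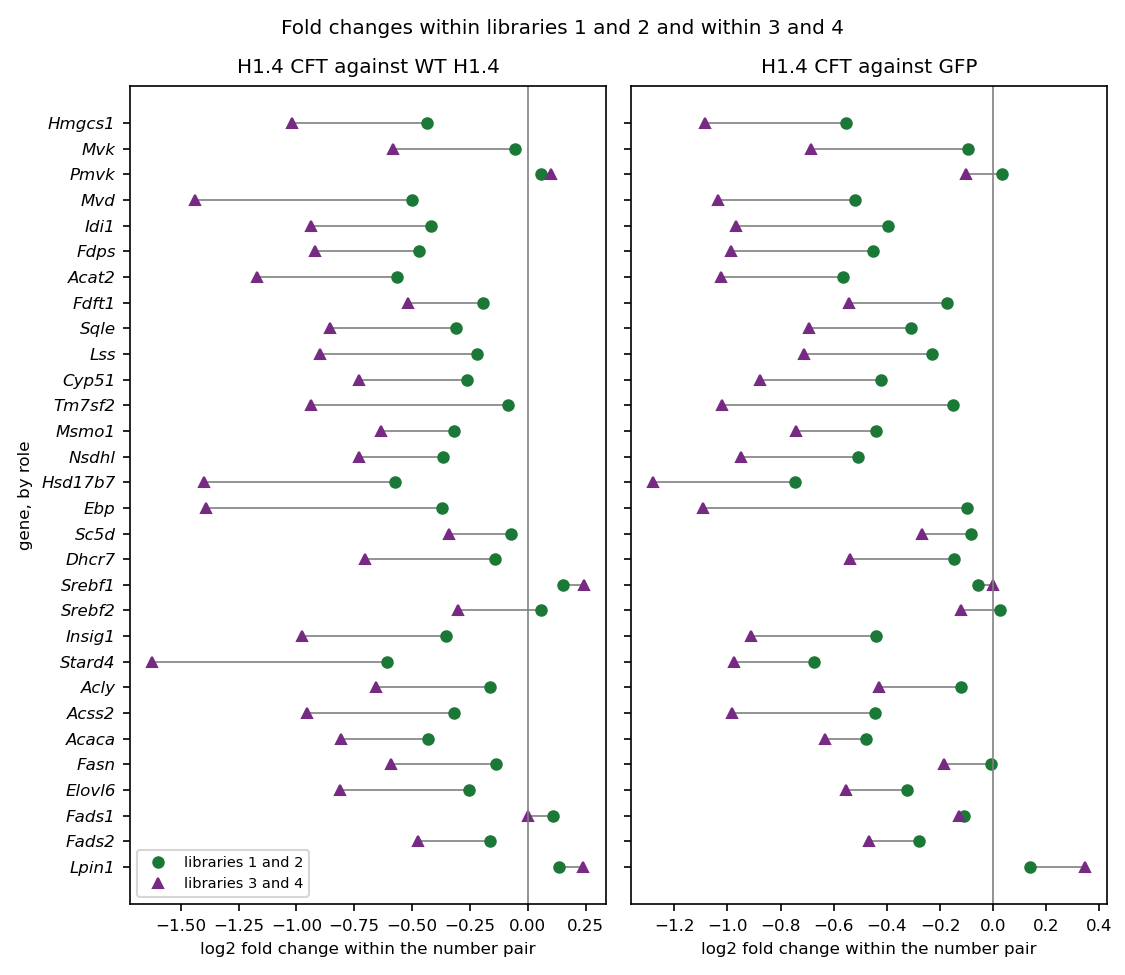
Log2 fold change of each gene within libraries 1 and 2 and within libraries 3 and 4, comparing H1.4 CFT with WT H1.4 and with GFP. The values of libraries 3 and 4 lie further left for most genes, with medians of -0.77 and -0.70 against -0.26 and -0.29.

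WT H1.4 and GFP cultures differed past the threshold in 1 of these genes. Of the 30, WT H1.4 was below GFP in every library for 4 (Cyp51, Nsdhl, Srebf1 and Fads1) and above it for 2 (Acly and Fasn), beside 12.2% of all genes tested in either direction, 5.94% below and 6.29% above. Srebf1 was the gene that passed over all libraries. Within libraries 3 and 4, where Fasn had a log2 fold change of 0.41, Mvd of 0.40 and Elovl6 of 0.26, 10 genes passed as higher and 5 as lower in WT H1.4 (all genes called there: 9.25%). Within libraries 1 and 2 the corresponding counts were 0 and 2, Cyp51 (-0.16) and Fads1 (-0.22), with 1.21% of all genes called. GFP is the single library GFP 2 there and is assumed to vary like the other groups.

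Other genes of sterol and fatty acid metabolism were described by lists, each beside the shares of all genes that fell and rose given above. Of 10 other genes listed with cholesterol synthesis, 8 of 10 fell and 0 rose against WT H1.4 (median log2 fold change -0.38). Against GFP 7 fell and 0 rose (median -0.29). The list was broad, with redox partners, a mitochondrial thiolase and a retinol dehydrogenase among its genes. Its counts are therefore not those of enzymes of the pathway alone. The 3 with the smallest p were Cyb5r3, Acat1 and Rdh11. Cyb5r3, the reductase that feeds electrons to sterol and fatty acid oxidases, had mean levels of 96.2 ± 5.46 CPM in GFP, 116 ± 2.58 in WT H1.4 and 89.1 ± 9.20 in H1.4 CFT (± SD, n = 3, 4 and 4, here and below; log2 fold change -0.38 against WT H1.4, adjusted p = 7.97e-05, and -0.11 against GFP, adjusted p = 0.212). Acat1, the mitochondrial thiolase, stood at 189 ± 3.02 CPM in GFP, 177 ± 13.4 in WT H1.4 and 154 ± 7.87 in H1.4 CFT (log2 fold change -0.19 against WT H1.4, adjusted p = 0.00529, and -0.29 against GFP, adjusted p = 0.000477). Rdh11, a retinol dehydrogenase, had 41.1 ± 4.09 CPM in GFP, 45.7 ± 2.47 in WT H1.4 and 33.4 ± 4.81 in H1.4 CFT (log2 fold change -0.45 against WT H1.4, adjusted p = 0.000508, and -0.30 against GFP, adjusted p = 0.0208), and its call against GFP was lost without CFT 3, CFT 4 or GFP 2 (adjusted p 0.0596 to 0.118).

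In the isoprenoid branch, which makes ubiquinone, dolichol and protein prenyl groups from the same precursors, 3 of 12 fell and 4 rose against WT H1.4 (median log2 fold change -0.016), and 2 fell and 1 rose against GFP (median -0.035). Pdss2, a subunit of the enzyme that makes the side chain of ubiquinone, averaged 18.8 ± 1.24 CPM in GFP, 20.1 ± 1.54 in WT H1.4 and 26.6 ± 2.62 in H1.4 CFT (log2 fold change 0.41 against WT H1.4, adjusted p = 0.000801, and 0.50 against GFP, adjusted p = 0.000414). Rabggtb, a subunit of the Rab prenyl transferase, averaged 68.2 ± 6.23 CPM in GFP, 67.3 ± 3.98 in WT H1.4 and 54.2 ± 2.26 in H1.4 CFT (log2 fold change -0.31 against WT H1.4, adjusted p = 0.000407, and -0.33 against GFP, adjusted p = 0.000683). Nus1, a subunit of the dolichol synthase, had 68.3 ± 4.61 CPM in GFP, 67.6 ± 0.917 in WT H1.4 and 59.3 ± 1.73 in H1.4 CFT (log2 fold change -0.19 against WT H1.4, adjusted p = 0.00552, and -0.21 against GFP, adjusted p = 0.00638), and the second call was lost without GFP 4 (adjusted p = 0.0585). Of all genes tested, 19.2% fell and 16.7% rose against WT H1.4, and 16.2% fell and 13.3% rose against GFP. With only 12 genes, these counts do not set the list apart from all genes.

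Among genes of sterol sensing and SREBP processing, 4 of 13 fell and 0 rose against WT H1.4 (median log2 fold change -0.11), and 2 fell and 0 rose against GFP (median -0.052). Fbxw7, the ubiquitin ligase subunit that marks nuclear SREBPs and other proteins for breakdown, was at 58.1 ± 3.45 CPM in GFP, 57.7 ± 1.51 in WT H1.4 and 43.4 ± 2.36 in H1.4 CFT (log2 fold change -0.41 against WT H1.4, adjusted p = 1.35e-05, and -0.42 against GFP, adjusted p = 3.36e-05). Mbtps2, the protease that makes the final cut of SREBPs, was at 42.1 ± 3.08 CPM in GFP, 42.4 ± 5.32 in WT H1.4 and 35.7 ± 2.18 in H1.4 CFT (log2 fold change -0.25 against WT H1.4, adjusted p = 0.0162, and -0.24 against GFP, adjusted p = 0.0404). Insig2, the relative of Insig1, was at 21.8 ± 1.39 CPM in GFP, 25.4 ± 1.12 in WT H1.4 and 21.0 ± 2.64 in H1.4 CFT (log2 fold change -0.27 against WT H1.4, adjusted p = 0.018, and -0.052 against GFP, adjusted p = 0.718). The calls of Mbtps2 and Insig2 against WT H1.4 were lost without either of 2 libraries, Mbtps2 without WT 4 or CFT 3 (adjusted p 0.0536 to 0.0874) and Insig2 without WT 4 or CFT 3 (adjusted p 0.0517 to 0.0795). Without WT 4 the log2 fold change of Mbtps2 against WT H1.4 was -0.16. Mbtps2 against GFP was lost without WT 3, CFT 3, CFT 4, GFP 2 or GFP 4 (adjusted p 0.0503 to 0.179).

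Among genes of sterol uptake, transport, efflux and turnover, 8 of 19 fell and 4 rose against WT H1.4 (all genes: 19.2% and 16.7%, median log2 fold change of the list -0.21). Against GFP 6 fell and 3 rose (all genes: 16.2% and 13.3%, median of the list -0.035). Apoe, the lipoprotein through which astrocytes pass cholesterol to neurons, was at 920.4 ± 44.8 CPM in GFP, 812 ± 77.3 in WT H1.4 and 1167 ± 80.03 in H1.4 CFT (log2 fold change 0.52 against WT H1.4, adjusted p = 1.69e-05, and 0.34 against GFP, adjusted p = 0.00157). It also had a log2 fold change of -0.18 for WT H1.4 against GFP (adjusted p = 0.293). The summed astrocyte markers were also lowest in WT H1.4, and their part in this result was not tested. Abcg4, a neuronal sterol exporter, was at 49.4 ± 0.590 CPM in GFP, 47.0 ± 0.946 in WT H1.4 and 37.1 ± 2.43 in H1.4 CFT (log2 fold change -0.34 against WT H1.4, adjusted p = 0.000108, and -0.42 against GFP, adjusted p = 4.7e-05). Gramd1a, which carries cholesterol from the plasma membrane to the endoplasmic reticulum, was at 138 ± 1.81 CPM in GFP, 163 ± 4.77 in WT H1.4 and 137 ± 5.19 in H1.4 CFT (log2 fold change -0.26 against WT H1.4, adjusted p = 7.37e-05, and -0.013 against GFP, adjusted p = 0.857).

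In the list of other fatty acid synthesis, elongation and desaturation genes, 7 of 21 fell and 3 rose against WT H1.4 (median log2 fold change -0.10), and 9 fell and 1 rose against GFP (median -0.17). Tecr, the reductase that ends each elongation cycle, was at 364 ± 8.96 CPM in GFP, 387 ± 13.2 in WT H1.4 and 297 ± 32.3 in H1.4 CFT (log2 fold change -0.38 against WT H1.4, adjusted p = 0.000103, and -0.29 against GFP, adjusted p = 0.00233). Me1, malic enzyme and a source of NADPH, was at 55.3 ± 5.17 CPM in GFP, 56.2 ± 2.54 in WT H1.4 and 43.4 ± 2.77 in H1.4 CFT (log2 fold change -0.37 against WT H1.4, adjusted p = 0.000148, and -0.35 against GFP, adjusted p = 0.000683), and Fads3, a desaturase, at 38.8 ± 1.80 CPM in GFP, 37.0 ± 3.51 in WT H1.4 and 27.0 ± 3.30 in H1.4 CFT (log2 fold change -0.45 against WT H1.4, adjusted p = 0.000321, and -0.52 against GFP, adjusted p = 0.000247). For fatty acid activation and glycerolipid synthesis, 6 of 19 fell and 5 rose against WT H1.4 (median log2 fold change -0.063), and 6 fell and 3 rose against GFP (median -0.012). Its members with the smallest p, all of them acyl-CoA synthetases, went in opposite directions. Acsbg1 was higher than in WT H1.4, at 40.2 ± 1.59 CPM in GFP, 26.4 ± 2.03 in WT H1.4 and 44.8 ± 1.71 in H1.4 CFT (log2 fold change 0.76 against WT H1.4, adjusted p = 9.47e-08, and 0.15 against GFP, adjusted p = 0.0913), and it fell in WT H1.4 against GFP (log2 fold change -0.60, adjusted p = 0.000132). Acsl5 was lower than in both, at 51.2 ± 2.03 CPM in GFP, 48.4 ± 2.53 in WT H1.4 and 34.6 ± 4.05 in H1.4 CFT (log2 fold change -0.48 against WT H1.4, adjusted p = 3.66e-05, and -0.57 against GFP, adjusted p = 2.26e-05), as was Acsl3, at 121 ± 5.17 CPM in GFP, 123 ± 4.13 in WT H1.4 and 86.3 ± 11.3 in H1.4 CFT (log2 fold change -0.51 against WT H1.4, adjusted p = 6.6e-05, and -0.49 against GFP, adjusted p = 0.000228). Of the genes of fatty acid oxidation, 0 of 18 fell and 4 rose against WT H1.4 (median log2 fold change 0.11), and 0 fell and 3 rose against GFP (median 0.083). Of all genes, 19.2% fell and 16.7% rose against WT H1.4, and 16.2% fell and 13.3% rose against GFP. Cpt1c, the neuronal relative of the carnitine palmitoyltransferase that admits fatty acids to mitochondria, was at 32.8 ± 3.25 CPM in GFP, 33.3 ± 2.44 in WT H1.4 and 42.0 ± 4.26 in H1.4 CFT (log2 fold change 0.33 against WT H1.4, adjusted p = 0.00243, and 0.36 against GFP, adjusted p = 0.00376). Cpt1a, that transferase, was at 27.6 ± 2.61 CPM in GFP, 33.7 ± 3.72 in WT H1.4 and 35.2 ± 1.26 in H1.4 CFT (log2 fold change 0.059 against WT H1.4, adjusted p = 0.579, and 0.34 against GFP, adjusted p = 0.00445), and Eci1, an enoyl-CoA isomerase, at 17.9 ± 1.92 CPM in GFP, 16.2 ± 1.15 in WT H1.4 and 19.98 ± 0.739 in H1.4 CFT (log2 fold change 0.30 against WT H1.4, adjusted p = 0.00758, and 0.15 against GFP, adjusted p = 0.224).

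**Figure D5:**
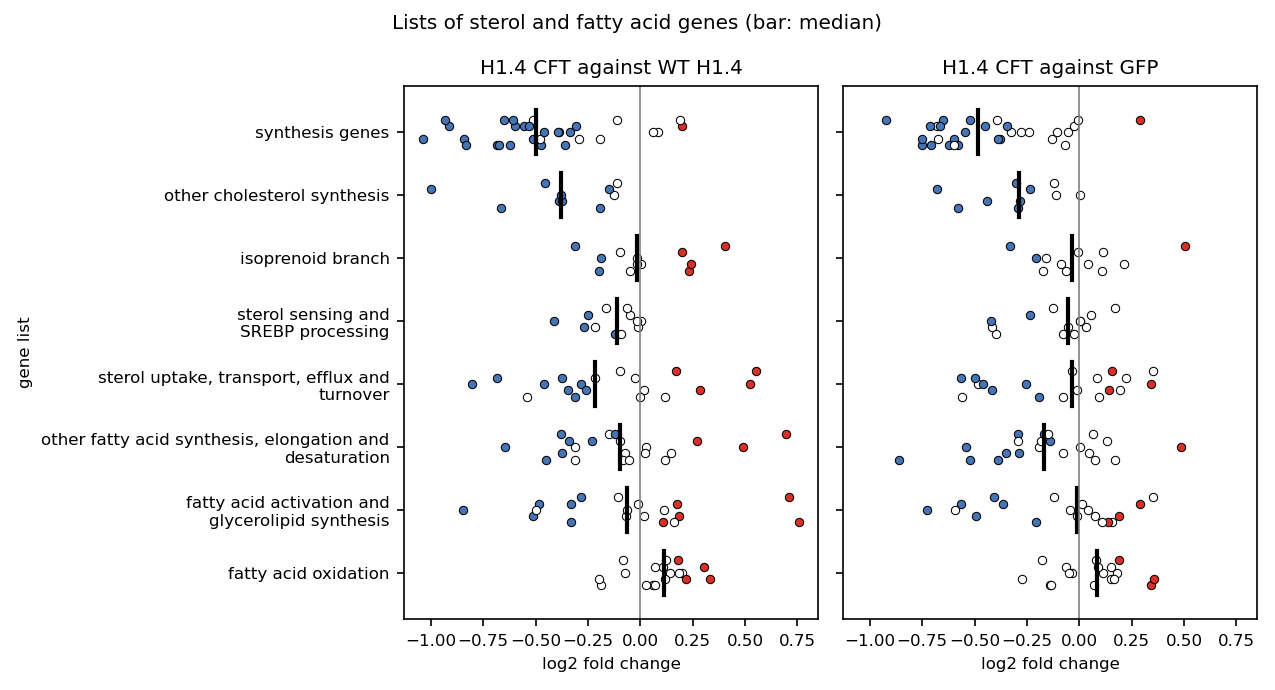
Log2 fold changes of the tested genes of the 30 and of the other lists, comparing H1.4 CFT with WT H1.4 and with GFP (points are genes, bars the medians). The 30 genes and the other cholesterol synthesis genes have medians of -0.50 and -0.38 against WT H1.4 and -0.49 and -0.29 against GFP, and the other lists lie nearer to 0.

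Across the 11 libraries most of the 30 genes varied together. The median Pearson correlation of log2 CPM over the 435 pairs was 0.888, and 82.5% of pairs were positive. The points share the 3 groups and the split of the H1.4 CFT libraries, so the values describe these libraries. Correlation with the mean of the other genes was highest for Sqle (0.994), Insig1 (0.992) and Hsd17b7 (0.991). It was 0.216 for Fads1 and negative for Pmvk (-0.171), Lpin1 (-0.445) and Srebf1 (-0.450). Among all other tested genes, those whose log2 CPM followed the mean of the 30 closely over the 11 libraries included Pde2a (0.993), Far2 (0.992), Prkce (0.992) and Scarb1 (0.990). They were chosen for following a mean that is itself lower in H1.4 CFT. Their lower levels there, given below, follow from that choice and are not separate evidence.

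Far2, which reduces fatty acyl-CoA to fatty alcohols, had 13.0, 13.8, 6.76 and 6.90 CPM in CFT 1 to 4, against 21.4, 19.7, 18.6 and 19.8 in WT 1 to 4 and 21.9, 19.8 and 18.2 in GFP 2 to 4. H1.4 CFT lay below both other groups, which overlapped each other, and Far2 fell 1.97-fold against WT H1.4 (adjusted p = 0.0053, log2 fold change -0.98, SE 0.214). Scarb1, a lipoprotein receptor that takes up cholesterol, fell 1.61-fold against WT H1.4 (mean 102 ± 6.82 CPM in GFP, 110.5 ± 6.08 in WT H1.4 and 68.7 ± 17.2 in H1.4 CFT, log2 fold change -0.69 against WT H1.4, adjusted p = 0.00977, and -0.56 against GFP, adjusted p = 0.0382). Pde2a, a cyclic nucleotide phosphodiesterase, had mean levels of 152 ± 4.91 CPM in GFP, 153 ± 7.61 in WT H1.4 and 113 ± 20.9 in H1.4 CFT (log2 fold change -0.44 against WT H1.4, adjusted p = 0.0131, and -0.42 against GFP, adjusted p = 0.0256), and Prkce, a protein kinase C, of 162 ± 5.68 CPM in GFP, 174 ± 4.13 in WT H1.4 and 119 ± 22.5 in H1.4 CFT (log2 fold change -0.55 against WT H1.4, adjusted p = 0.00429, and -0.44 against GFP, adjusted p = 0.0216).

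Summed neuronal markers were lower in the same libraries as the synthesis genes, and their part in the results was not tested. Of 10 neuronal markers, 6 fell and 2 rose against WT H1.4 (all genes: 19.2% and 16.7%), and 7 fell and 0 rose against GFP (all genes: 16.2% and 13.3%). Their summed CPM was lower in CFT 3 and CFT 4 than in CFT 1 and CFT 2, as given above. Summed astrocyte markers were level over these libraries, at 2407, 2414, 2422 and 2421 CPM in CFT 1 to 4, inside or just under the range of GFP. Of 10 astrocyte markers, 5 rose and 0 fell against WT H1.4, and 1 rose and 1 fell against GFP. In WT H1.4 against GFP, 6 of 10 astrocyte markers and 2 of 10 neuronal markers fell (all genes: 0.509%). So did 2 of the 8 tested endothelial, mural and fibroblast markers, and 1 of the 9 tested oligodendrocyte lineage markers rose (all genes: 0.434%). Summed oligodendrocyte lineage markers overlapped between the groups and ranged from 473 to 584 CPM in GFP, from 478 to 573 in WT H1.4 and from 477 to 553 in H1.4 CFT, with Mag under 1 CPM on average. Of 8 microglial markers, 7 had a mean under 1 CPM, among them Cx3cr1, which was listed at 0 in all 4 WT H1.4 libraries. Endothelial, mural and fibroblast markers summed to between 58.3 and 66.8 CPM in H1.4 CFT, against 75.5 and 79.2 in GFP and 50.4 and 65.2 in WT H1.4, with Cldn5 and Rgs5 under 1 CPM. Counts on mitochondrially encoded genes were 3.07 to 3.31% of gene counts in H1.4 CFT, against 2.75 to 2.92% in GFP and 2.57 to 2.90% in WT H1.4.

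In the GRCr8 annotation 11 of the 30 genes overlap another gene: Hmgcs1, Idi1, Fdps, Acat2, Fdft1, Srebf1, Srebf2, Insig1, Acss2, Acaca and Fads2. Overlap was taken over whole gene spans on either strand, so it does not show that exons overlap. The strand setting of the counting is not given, so whether reads were affected by such partners is not known. Acat2 also has a similarly named gene in the files, Acat2l1, with which it could share reads.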

How the data were processed

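For each of 11 libraries the deposited values are unnormalized counts by gene symbol. Per the submitters' processing notes, the authors used STAR 2.7.2b and HTSeq 0.10.0 with the mRatBN7.2 build; the annotation release and strand setting are not given in the sources used here. The 5 summary entries of each file were left out, and libraries held 12070941 to 18846492 gene counts. The analysis used edgeR 4.0.16 in R 4.3.3: TMM scaling, filterByExpr by group (minimum count 10, minimum total 15), all libraries in 1 fit with a term for group, the robust quasi-likelihood test with 8 residual degrees of freedom, and Benjamini-Hochberg adjustment over the 17294 genes tested, with a threshold of 0.05. A gene rose or fell only where it passed. SE is the log2 fold change divided by the square root of F.

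The 30 genes and the other lists were chosen with earlier results of these data known. CPM in every library are given for genes that passed in a comparison of H1.4 CFT and for the 4 regulators and carriers. Of each other list, up to 3 genes past the threshold were named by smallest p, and of the 5 most alike genes by Pearson correlation with the mean of the 30 over the libraries 4 are given, 1 being not reported here. Scd1 and Hacd2 of the other lists were not analysed here. Labels give same numbers across groups. Deviations of same-numbered libraries from their group means correlated over genes at 0.149, 0.174, 0.192 and 0.142 for H1.4 CFT with WT H1.4 and at 0.255, 0.124 and 0.163 for H1.4 CFT with GFP, so the number was used as a replicate block in an alternative fit. This pairing comes from the data, not the labels. Libraries of different numbers were not compared in this way. The correlations therefore cannot tell pairing by single number from the split between the number pairs. Other alternatives were RLE scaling, DESeq2 1.42.0, limma-voom (limma 3.58.1), no filter, a filter of 5 CPM in 3 libraries, a term for the number pair, each number pair alone, only the groups compared, a non-robust spread and each library left out. The test was checked on simulated counts, where it recovered 32% to 46% of 1.25-fold changes and 100% of 2-fold changes. These counts had the same spread for all genes and no split by number, so the check does not cover that split. Promoters and overlaps came from RefSeq tables of GRCr8, where 29477 of the 42172 symbols matched; no coordinates were carried between builds.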

Additional observations from a re-analysis of the deposited data

Results flagged for a closer look

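In the WT H1.4 group Acat2, the cytosolic thiolase, stood at 443 CPM in WT 4, apart from the other 3 libraries at 414 to 419 CPM, a gap of 0.844 of the whole range. It was the 1 of 60 groups of 4 libraries (30 genes in WT H1.4 and in H1.4 CFT) to stand out, and chance alone marks about 1 group in 20.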

How the results depend on the processing

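The counts of genes lower in H1.4 CFT moved by less than 1.5 times against WT H1.4 under every alternative. Against GFP 16 became 26 within libraries 3 and 4 and 8 with only the groups compared, and all genes called went from 5098 to 3331 within libraries 1 and 2. Genes higher against WT H1.4 went from 1 to 2 with no filter, the stricter filter, the replicate block, the number pair term, either number pair alone and only the groups compared. Genes higher against GFP went from 1 to 0 within libraries 1 and 2. The median against WT H1.4 went from -0.50 to -0.26 within libraries 1 and 2 and to -0.77 within libraries 3 and 4.

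For WT H1.4 against GFP, genes higher went from 0 to 1 with DESeq2, with no filter and with only the groups compared, and to 10 within libraries 3 and 4. Genes lower went from 1 to 2 with DESeq2, with no filter, with the number pair term and within libraries 1 and 2, to 3 with only the groups compared and to 5 within libraries 3 and 4. All genes called went from 163 to 268 with DESeq2, 462 with no filter, 404 with the number pair term, 348 with only the groups compared and 1596 within libraries 3 and 4. Same-numbered libraries of these groups deviated together at 0.206, 0.113 and 0.0927, and with the replicate block 248 genes were called. In the comparisons of H1.4 CFT the replicate block changed no call among the 30 genes other than those given in the report.

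Among the 30 genes, using only the groups compared ended the calls of Fdft1 and Insig1 against WT H1.4 and of Hmgcs1, Mvk, Sqle, Hsd17b7, Tm7sf2, Ebp, Acss2 and Elovl6 against GFP. With no filter Fdft1 against WT H1.4 and Sqle, Tm7sf2 and Elovl6 against GFP were lost. DESeq2 and limma-voom each added Mvk, Lss, Tm7sf2 and Dhcr7 against WT H1.4 and Mvd, Fdft1 and Insig1 against GFP, and limma-voom also Lss and Stard4 against GFP. The number pair term ended no call among the 30 and added Mvk, Lss, Sc5d, Dhcr7 and Lpin1 against WT H1.4 and Mvd, Fdft1, Lss, Sc5d, Insig1 and Fads1 against GFP.

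Some log2 fold changes turned sign. Srebf2 against WT H1.4 was 0.059 within libraries 1 and 2. Srebf2 against GFP was 0.0085 with the stricter filter, 0.027 within libraries 1 and 2, 0.041 without CFT 3, 0.0499 without CFT 4 and 0.049 without GFP 2. Pmvk against GFP was 0.032 within libraries 1 and 2. Stard4 for WT H1.4 against GFP was 0.36 over all libraries (SE 0.303), the highest of the 30 genes. It was -0.066 within libraries 1 and 2 and 0.65 within libraries 3 and 4. The cause was not tested for any of these.

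Leaving out 1 library at a time gave 1 to 2 genes higher and 17 to 23 lower against WT H1.4, with 5030 to 6444 of all genes called and a median of -0.59 to -0.39. Against GFP it gave 0 to 1 higher and 10 to 20 lower, with 3966 to 5132 called and a median of -0.56 to -0.40. For WT H1.4 against GFP it gave 0 to 1 higher and 0 to 1 lower, with 44 (without GFP 3) to 306 (without GFP 2) called and a median of -0.0054 to 0.10.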
